A study of Mus musculus with 12 samples.

Results

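The transcripts of 10 receptors for inflammatory signals were followed in LSK cells of Fancg KO and WT mice. They were taken by name from the 35999 genes of the deposited table, and all 10 were found. They are the interferon receptor chains Ifngr1, Ifngr2, Ifnar1 and Ifnar2, the TNF receptors Tnfrsf1a and Tnfrsf1b, the interleukin receptors Il1r1 and Il6st, and the Toll-like receptors Tlr2 and Tlr4. LSK cells lack mature lineage antigens and carry Sca-1 and KIT, and this gate of mouse bone marrow holds the hematopoietic stem cells and multipotent progenitors. RNA-seq libraries were made from sorted LSK cells of 6 mice labelled WT and 6 mice labelled FancgKO, called KO here, with 1 library per mouse. The KO mice are Fancg-/- animals, and no treatment is named for either group. Strain, age and sex of the mice are not given in the sources used here.

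These receptors sit on the cell surface and turn a bacterial or immune signal into a change of transcription. Interferon receptors and the IL-6 receptor chain gp130 work through JAK kinases and STAT factors, whereas TNF, IL-1 and Toll-like receptors lead through adaptor proteins to NF-kB. Stem and progenitor cells carry such receptors and leave quiescence when they are engaged. Progenitors deficient for Fanconi anemia genes are known for their sensitivity to TNF and interferon-gamma, so the receptor transcripts are a natural place to compare KO with WT cells.

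Values are called signal and were taken to be estimated read counts scaled by a factor for each library. The signal of 1 read was taken as the most frequent of the low values in each library. By this measure the libraries held about 1235110 to 2471413 reads. These totals include the gene Lars2, which alone made up 15.6% to 36.2% of the summed signal of a library. Fancg, the targeted gene, had a signal of 4.76 to 24.1 for the WT label and of 4.46 to 14.5 for the KO label, at 3.16 to 22.3 reads per library. It did not separate the labels (two-sided exact permutation test, p = 0.636), and each direction given here is one between labels. WT replicate 3 and KO replicate 7 stood apart in Y-linked transcripts. Their summed signals were 26.6 and 49.7, where the remaining WT libraries had 298 to 353 and the remaining KO libraries 189 to 435. Kit (283 to 435) and Cd34 (528 to 728) were high in every library, while Ly6a, which encodes Sca-1, was low (4.84 to 17.4).

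As a group, the receptors did not separate the labels. All 10 were above 0 in all 12 libraries, 3 had a higher mean log2 signal in the libraries labelled KO (Ifngr1, Tnfrsf1a and Tlr2) and 7 a lower one. Of all genes tested, 50.7% were higher. The filter of a mean signal of at least 10 left 9 receptors, and Tlr4, at a mean of 9.03, fell under it. With limma on log2(signal + 1), 0 of these 9 had an adjusted p under 0.05 and 0 had an unadjusted p under 0.05, against 0% and 3.67% of the 8887 genes tested. Every member tested had an adjusted p = 0.9996 by limma with Benjamini-Hochberg adjustment. The exact permutation tests of the 10 members gave p of 0.149 or more, where 6 libraries against 6 can reach 0.00217. For 0 of the 10 receptors did the labels fail to overlap, against 0.09% of all genes tested. The median log2 fold change of the 9 tested was -0.15, beside 0.00 over all genes.

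**Figure D1:**
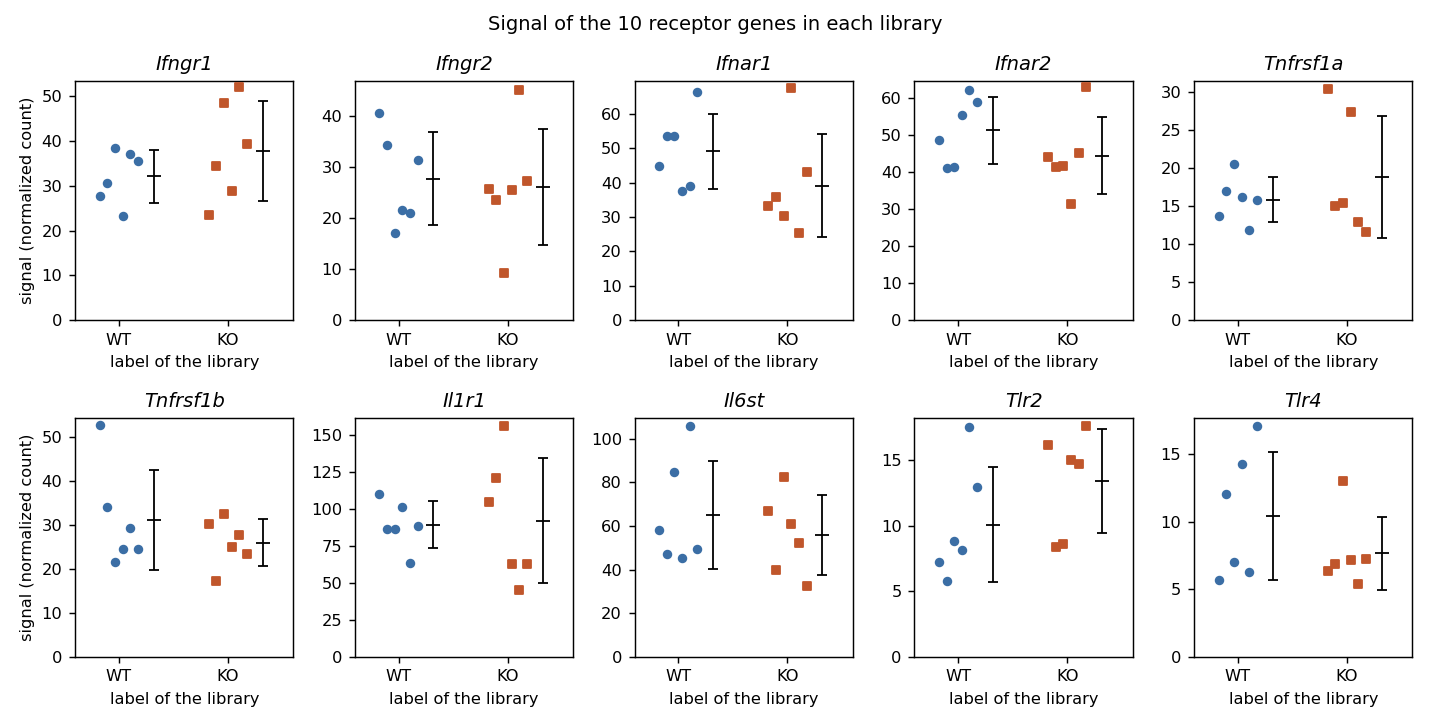
Signal (normalized count, linear axis from 0) of each receptor gene in 6 WT (circles) and 6 KO (squares) libraries, with the mean and SD of each label as bars. The labels overlap for all 10 genes, and for Il1r1 the KO libraries spread from 45.4 to 155.8, wider than the 63.3 to 109.9 of the WT libraries.

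Promoter windows of RefSeq (GRCm38.p6, 250 bases before to 50 after the start) were given for 9 of the 10 receptors, in 10 windows; Tlr4 had none. They were searched on both strands for the NF-kB consensus, for the interferon-gamma activated site GAS (TTCNNNGAA) and for the interferon-stimulated response element (GAAA, any 2 bases, GAAA), since the pathways below these receptors end on such sites. The NF-kB consensus was found in 3 of 10 windows, against 8.46% of 32851 windows of all genes. GAS was found in 4 of 10 windows (8.30% of all windows) and the response element in 1 of 10 (3.44% of all windows). The GC box (GGGCGG), also searched, was in 8 of 10 windows, against 35.7% of all windows. G and C made up 49.3% to 74.3% of the receptor windows, where the median over all windows was 52.7%. The part of this base content in the counts of matches was not tested. The matches below belong to the receptors with the largest mean differences in each direction, Tlr2 and Ifnar1, to the other interferon receptor chains with a match and to Tnfrsf1b, the window with the response element. Each is shown 5′ to 3′ on the strand of its gene with the match in capitals.
Tlr2, NF-kB, chr3:83841761-83841790, minus strand: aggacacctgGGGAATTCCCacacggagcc
Ifngr2, NF-kB on the opposite strand, chr16:91546974-91547003, plus strand: ggaacaccggGGAAAGTCCCcacgggccgg
Ifnar1, GAS, chr16:91485200-91485229, plus strand: ggcgggggcgTTCACGGAAggggcggggcg
Ifnar2, GAS, chr16:91372559-91372588, plus strand: tgccaaggccTTCCTGGAAgaagagagtac
Tnfrsf1b, response element on the opposite strand, chr4:145246861-145246890, minus strand: ggcctgagggTTTCGCTTTCagtcaccagc

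The match shown for Tlr2 reads the same on both strands. Counted over both strands, the Tlr2 window held 5 NF-kB matches. They included one that overlaps the match shown and a separate one 8 bases before the start, neither of which is printed. Starts are those of RefSeq and differ for some genes from the GENCODE gene ends given with the values. These matches describe letters in the windows. Binding was not measured, and of the receptors shown none differed between the labels past an unadjusted p of 0.05.

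The interferon-gamma receptor is built of IFNGR1, which binds the cytokine and docks JAK1, and of IFNGR2, which brings JAK2. Ifngr1 lies on chromosome 10 from 19591949 to 19610229. Its signal ran from 23.2 to 38.5 (median 33.1) for the WT label and from 23.6 to 52.0 (median 36.9) for the KO label. In 3 KO libraries it was above the highest WT library, and the other 3 were within the WT range. On the log2 scale the KO label was 0.20 higher (standard error 0.21, 95% interval -0.25 to 0.64, unadjusted limma p = 0.359, exact permutation p = 0.349). With 1 library left out the difference ran from 0.10 without KO replicate 6 to 0.32 without KO replicate 2, and it was 0.11 without WT replicate 5 and 0.12 without KO replicate 4.

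Ifngr2 ran from 17.2 to 40.6 (median 26.6) for the WT label and from 9.29 to 45.1 (median 25.6) for the KO label. The KO libraries held both the lowest and the highest value of all 12, in replicates 4 and 6. Its log2 fold change was -0.15 (95% interval -0.81 to 0.51), and 0.11 without KO replicate 4.

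The receptor for type I interferon joins IFNAR1, which carries TYK2, with IFNAR2, which carries JAK1. Ifnar1 had the largest fall in mean of the 9 receptors tested, and it did not pass the test. Its signal ran from 37.5 to 66.6 (median 49.3) for the WT label and from 25.2 to 67.5 (median 34.5) for the KO label. In 4 KO libraries it was below the lowest WT library, while KO replicate 5, at 67.5, was the highest of all 12. The log2 fold change was -0.37 (standard error 0.22, 95% interval -0.84 to 0.11, unadjusted limma p = 0.121, exact permutation p = 0.149). Without KO replicate 5 it was -0.53 with an unadjusted limma p of 0.0153, so 1 library decides on which side of 0.05 this gene falls, and 0 genes passed after adjustment in that fit.

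Ifnar2 ran from 41.0 to 62.1 (median 52.1) for the WT label and from 31.4 to 63.0 (median 42.8) for the KO label. Of the KO libraries 4 were within the WT range, 1 above and 1 below it, the last being replicate 5, in which Ifnar1 was highest. The labels differed by -0.21 on the log2 scale (95% interval -0.59 to 0.16, unadjusted limma p = 0.248, exact permutation p = 0.240). Without WT replicate 3 and KO replicate 7 it was -0.38 with an unadjusted limma p of 0.0465, again with 0 genes passing after adjustment.

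Ifnar2, Ifnar1 and Ifngr2 are neighbours on chromosome 16 of GRCm38, all on the plus strand, from 91372783 to 91405589, from 91485238 to 91507441 and from 91547072 to 91565623. Il10rb, a chain of the IL-10 receptor, lies between the first and the second, from 91406164 to 91425834. Il10rb had a log2 fold change of -0.09 (95% interval from limma -0.74 to 0.56), and like the receptors beside it did not pass an unadjusted p of 0.05.

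TNFR1, the product of Tnfrsf1a, has a death domain and can signal both survival and cell death, whereas TNFR2, the product of Tnfrsf1b, lacks it. Tnfrsf1a ran from 11.8 to 20.5 (median 15.98) for the WT label and from 11.6 to 30.45 (median 15.2) for the KO label. KO replicates 2 and 5, at 30.45 and 27.4, were above every WT library, and the other 4 were at or below 15.4. A log2 fold change of 0.16 (95% interval -0.39 to 0.71) fell to 0.01 without KO replicate 2 and to 0.04 without KO replicate 5.

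Tnfrsf1b ran from 21.7 to 52.6 (median 26.9) for the WT label and from 17.3 to 32.4 (median 26.3) for the KO label. The medians lay close together, and the lower mean of the KO label rested in large part on WT replicate 2, the highest library at 52.6. With this library the log2 fold change was -0.21 (95% interval -0.69 to 0.26), and without it -0.05. Without KO replicate 3, the lowest library, it was -0.11.

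IL1R1 binds IL-1 and needs the partner chain encoded by Il1rap to signal. The signal of Il1r1 ran from 63.3 to 109.9 (median 87.2) for the WT label and from 45.4 to 155.8 (median 83.5) for the KO label. Of the KO libraries 1 was within the WT range, 2 were above and 3 below it. The coefficient of variation was 17.8% for the WT label and 46.0% for the KO label, where counting error alone would give about 10.2% at this depth. This difference in spread was not tested. The means of log2 signal differed by -0.07 (95% interval -0.62 to 0.49, unadjusted limma p = 0.804, exact permutation p = 0.848). The mean of the signal itself was higher for the KO label, at 91.85 against 89.16 for the WT label.

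Il6st encodes gp130, the signalling chain that IL-6 shares with IL-11, LIF and oncostatin M. Its signal ran from 45.2 to 106.0 (median 53.8) for the WT label and from 32.4 to 82.7 (median 56.7) for the KO label. Between the labels the log2 fold change was -0.21 (95% interval -0.75 to 0.34), and it was -0.05 without WT replicate 6, the highest library, and -0.07 without KO replicate 7, the lowest. The median of the KO label was above that of the WT label although its mean was below.

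TLR2 recognises bacterial lipoproteins together with TLR1 or TLR6, and TLR4 recognises lipopolysaccharide together with MD-2 and CD14. Tlr2 is a gene of the minus strand of chromosome 3 (83836272 to 83841767). Its values could be read back as whole reads in 12 of 12 libraries (within 0.001 of a read). The WT replicates 2 to 7 held 6, 5, 12, 12, 14 and 12 reads of Tlr2, and the KO replicates 15, 10, 11, 18, 13 and 11. In all, 61 reads stood against 78, and every comparison of this gene rests on them. As signal, Tlr2 ran from 5.77 to 17.6 (median 8.47) for the WT label and from 8.36 to 17.7 (median 14.9) for the KO label. Of the KO libraries 4 were at or above 14.7, as was 1 WT library. Tlr2 had a log2 fold change of 0.41 (standard error 0.30, 95% interval -0.23 to 1.06, unadjusted limma p = 0.188, exact permutation p = 0.154). Without WT replicate 3 and KO replicate 7 it was 0.21. With all libraries it was the largest among the 9 tested, and the only one whose interval reached beyond a doubling.

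Tlr4, on chromosome 4 from 66827584 to 66930284, had a signal of 5.70 to 17.1 (median 9.54) for the WT label and of 5.35 to 12.97 (median 7.00) for the KO label. In 3 WT libraries and 1 KO library it was at or above 12.03, and the other 8 lay between 5.35 and 7.25. The mean log2 difference was -0.34 (exact permutation p = 0.307), at 4.52 to 21.0 reads per library, and it was -0.18 without WT replicate 7.

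**Figure D2:**
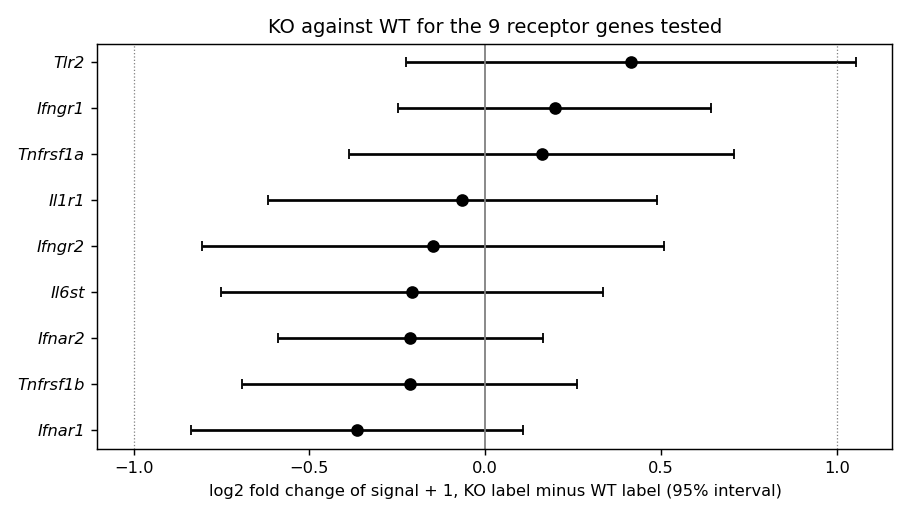
Log2 fold change of signal + 1 for the 9 receptors tested, KO label minus WT label, with the 95% interval from limma as a bar and dotted lines at a halving and a doubling. All 9 intervals include 0, from Ifnar1 at -0.37 to Tlr2 at 0.41.

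The intervals show what size of change the design could resolve. For 8 of the 9 receptors tested the 95% interval lay within a halving and a doubling, and for 0 of 9 within 0.5 on the log2 scale. The median standard error of the 9 was 0.26, against 0.24 over all genes tested, and a change of 0.5 in at least 1 direction lay within the interval of each. In RNA from a sorted pool, fewer cells that carry a receptor and less RNA per cell cannot be told apart.

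To rank the receptors among themselves, signal was divided by the length of the longest protein-coding transcript. The means of the same 12 libraries set which genes are neighbours. The sign-flip tests between neighbours, here and below, are therefore no independent support for the order. Ifngr1 was highest at 16.6 ± 4.26 signal per kb (SD, n = 12), followed by Ifnar2 at 15.7 ± 3.25 and Il1r1 at 15.5 ± 5.24. These did not differ beyond their spread, since Ifngr1 was above Ifnar2 in 6 of 12 libraries and Ifnar2 above Il1r1 in 5 of 12 (exact sign-flip test, adjusted p = 0.833 for both). Ifnar1 followed at 11.3 ± 3.48 signal per kb, below Il1r1 in 9 of 12 libraries (exact sign-flip test within libraries, p = 0.0410, adjusted over the 9 neighbouring pairs 0.0923).

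Tnfrsf1a, Tnfrsf1b, Ifngr2 and Il6st followed, from 8.03 ± 2.77 to 6.97 ± 2.46 signal per kb (SD, n = 12), in which neighbours kept their order in 6, 6 and 7 of 12 libraries. Ifnar1 was above Tnfrsf1a in 11 of 12 libraries (exact sign-flip test, adjusted p = 0.0440). Tlr2 at 3.90 ± 1.45 and Tlr4 at 2.21 ± 0.97 signal per kb were lowest. Il6st was above Tlr2 in 11 of 12 libraries (exact sign-flip test, adjusted p = 0.0264) and Tlr2 above Tlr4 in 9 of 12 (adjusted p = 0.0454). From first to last the mean per kb fell 7.48-fold. With the union of all exons as the length, the same 3 genes led in another order and Il6st, Tlr2 and Tlr4 remained last, but Ifnar1, at 7.44 signal per kb, fell to just below Tnfrsf1b at 7.48, so its distance from the lower genes depends on the length used.

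**Figure D3:**
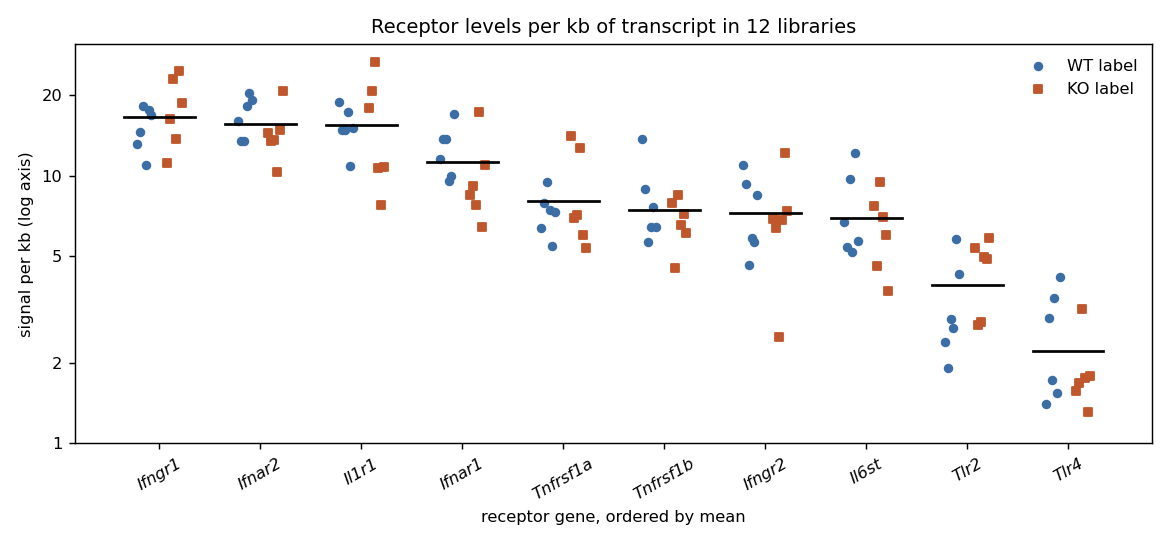
Signal per kb of the longest protein-coding transcript (log axis) for the 10 receptors in 6 WT (circles) and 6 KO (squares) libraries, ordered by the mean over all 12, drawn as a line. Ifngr1, Ifnar2 and Il1r1 lead, with means of 16.6, 15.7 and 15.5, and Tlr4 is last at 2.21.

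A library's scaling largely cancels in the ratio of a pair of genes within it. Ifngr1 and Ifngr2, Ifnar1 and Ifnar2, Il1r1 and Il1rap, and Il6st and Il6ra encode chains of a shared receptor. Tnfrsf1a and Tnfrsf1b, and Tlr2 and Tlr4, encode separate receptors of the same family. Signal was not divided by length here, so the ratios compare labels and not the levels of both genes. The comparison covered 6 pairs, and 0 of 6 had an exact permutation p under 0.05. The log2 ratio of Ifngr1 to Ifngr2 was 0.25 ± 0.61 (SD, n = 6) in WT libraries and 0.59 ± 0.86 in KO libraries (exact permutation p = 0.480, adjusted over the 6 pairs 0.906). KO replicate 4, at 2.27, was far above the other KO libraries, and without it the difference fell from 0.35 to 0.01. The ratio of Ifnar1 to Ifnar2 differed by -0.15 (exact permutation p = 0.665), with 5 of 6 KO libraries below 0 and replicate 5 at 1.08.

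The log2 ratio of Tnfrsf1a to Tnfrsf1b was below 0 in 6 of 6 WT libraries and in 4 of 6 KO libraries, a difference of 0.37 (exact permutation p = 0.296) that fell to 0.18 without WT replicate 2 and to 0.25 without KO replicate 5. The ratio of Tlr2 to Tlr4 shifted most. It was -0.02 ± 0.85 (SD, n = 6) in WT libraries and 0.73 ± 0.73 in KO libraries, above 0 in 3 of 6 and in 5 of 6 libraries. This difference of 0.75 did not pass the test (exact permutation p = 0.139, adjusted over the 6 pairs 0.831), and without WT replicate 6 it was 1.03 (exact permutation p = 0.0390). The log2 ratio of Il1r1 to its partner Il1rap was 2.05 ± 0.51 in WT and 2.09 ± 0.86 in KO libraries (SD, n = 6), a difference of 0.04. That of Il6st to Il6ra, the IL-6-binding chain, was below 0 in 5 of 6 WT and 6 of 6 KO libraries and differed by -0.12.

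**Figure D4:**
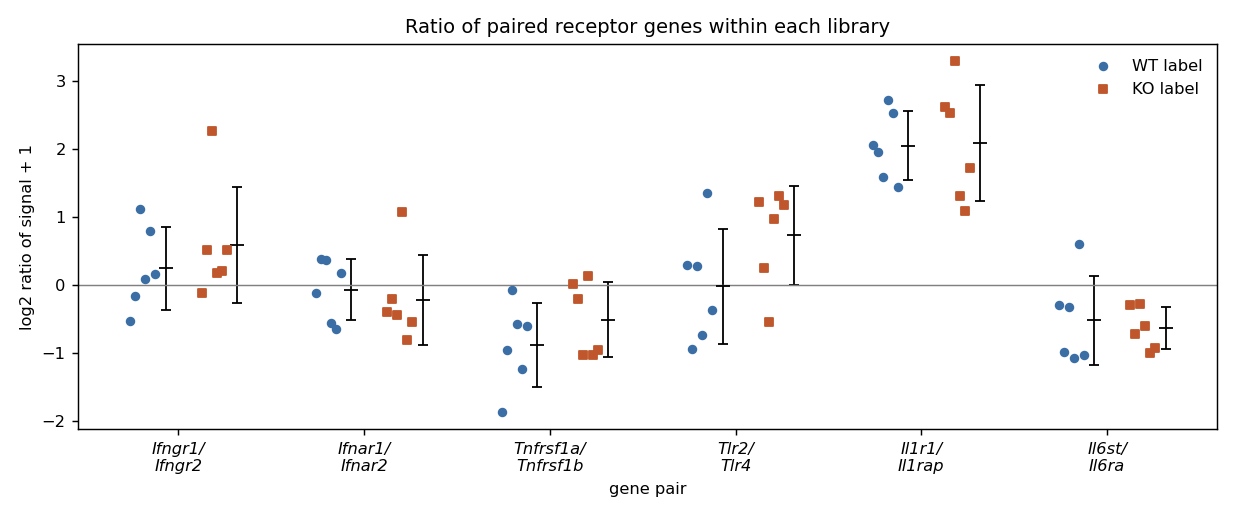
Log2 ratio of signal + 1 for 6 pairs of receptor genes in each WT (circle) and KO (square) library, with the mean and SD of each label as bars. The labels overlap for every pair, and KO replicate 4 stands alone at 2.27 for Ifngr1 to Ifngr2.

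The ligands themselves were low. Of 11 cytokine genes that engage or block these receptors 0 reached the filter, 6 had a value above 0 in at least 1 library, and Ifng, Ifnb1, Lta, Il1a and Il1b were listed at 0 in all 12 libraries. Tnf had a signal of 5.10 ± 3.43 (SD, n = 6) for the WT label and 6.34 ± 2.95 for the KO label (exact permutation p = 0.435). Oncostatin M (Osm) had a signal of 4.07 ± 1.45 and 6.32 ± 4.42 (exact permutation p = 0.437).

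Beyond the receptors, 118 genes of the same pathways were listed, of which 74 passed the filter, 37 with a higher and 37 with a lower mean. At an unadjusted limma p under 0.05, 6 of the 74 (8.11%) were called, 3 higher and 3 lower, against 3.67% of all genes tested, 1.98% higher and 1.69% lower. After adjustment 0 of the 74 were called. The count moved from 1 without WT replicate 7 to 8 without WT replicate 6 or without KO replicate 3.

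The 3 lower genes, picked by their p, all encode related receptors. In the list that holds Sigirr and Il18rap, 5 of 12 genes tested had a higher mean and 7 a lower one. Sigirr, a receptor that restrains IL-1 and Toll-like signalling, ran from 30.8 to 81.0 (median 40.2) for the WT label and from 12.2 to 34.1 (median 30.7) for the KO label. In 3 KO libraries it was below every WT library, and in 0 above the WT range. The difference on the log2 scale was -0.71 (standard error 0.27, unadjusted limma p = 0.0175, exact permutation p = 0.00866), and the unadjusted p stayed under 0.05 with any 1 of the 12 libraries left out, but was 0.0808 with libraries rescaled to equal sums without Lars2.

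Il18rap, the accessory chain of the IL-18 receptor, ran from 32.3 to 82.4 (median 71.2) for the WT label and from 22.8 to 60.6 (median 39.6) for the KO label. This was a log2 fold change of -0.65 (unadjusted limma p = 0.0245, exact permutation p = 0.0541), and the unadjusted p rose to between 0.0545 and 0.0660 without WT replicate 3, WT replicate 7 or KO replicate 5. Il18r1, the other chain of this receptor, fell under the filter and went the other way. Its mean signal was 6.25 for the WT label and 8.18 for the KO label (exact permutation p = 0.396). Tlr7, the only one of 10 other Toll-like receptor genes above the filter, senses RNA in endosomes. It ran from 7.13 to 38.4 (median 15.2) for the WT label and from 2.51 to 14.3 (median 8.78) for the KO label. The means differed by -1.07 on the log2 scale (standard error 0.41, unadjusted limma p = 0.0191, exact permutation p = 0.0346), with an unadjusted p of 0.0564 without WT replicate 5 and 0.0507 without WT replicate 7.

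The other 3 calls were higher. Ikbkg encodes NEMO, the regulatory subunit of the IkB kinase, and ran from 11.2 to 24.2 (median 16.9) for the WT label and from 18.6 to 80.1 (median 25.7) for the KO label. A log2 fold change of 0.77 (standard error 0.31, unadjusted limma p = 0.0252, exact permutation p = 0.0195) fell to 0.48, with an unadjusted limma p of 0.0515, without KO replicate 7, which held the value of 80.1. The unadjusted p was 0.0578 without WT replicate 3 and 0.0501 without WT replicate 7. Without WT replicate 3 and KO replicate 7 together the log2 fold change was 0.38 and not called.

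Sharpin, a subunit of the ubiquitin ligase complex that acts below TNFR1, had a signal of 19.7 ± 4.43 (SD, n = 6) for the WT label and 28.5 ± 8.001 for the KO label (log2 fold change 0.51, unadjusted limma p = 0.0375, exact permutation p = 0.0260). Cnpy3, a chaperone of Toll-like receptors, had a signal of 14.03 ± 6.21 and 21.1 ± 4.95 (log2 fold change 0.64, unadjusted limma p = 0.0433, exact permutation p = 0.0541). Neither held in every fit with 1 library left out. The unadjusted limma p of Sharpin stayed under 0.05 in 7 of these 12 fits and that of Cnpy3 in 4. For Sharpin it went up to 0.0968 without WT replicate 7. It was above 0.05 also without WT replicate 4 or KO replicate 4, 5 or 7. For Cnpy3 the unadjusted limma p went up to 0.110 without WT replicate 2. It was above 0.05 also without WT replicate 3, 4 or 7 or KO replicate 2, 4, 5 or 7.

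**Figure D5:**
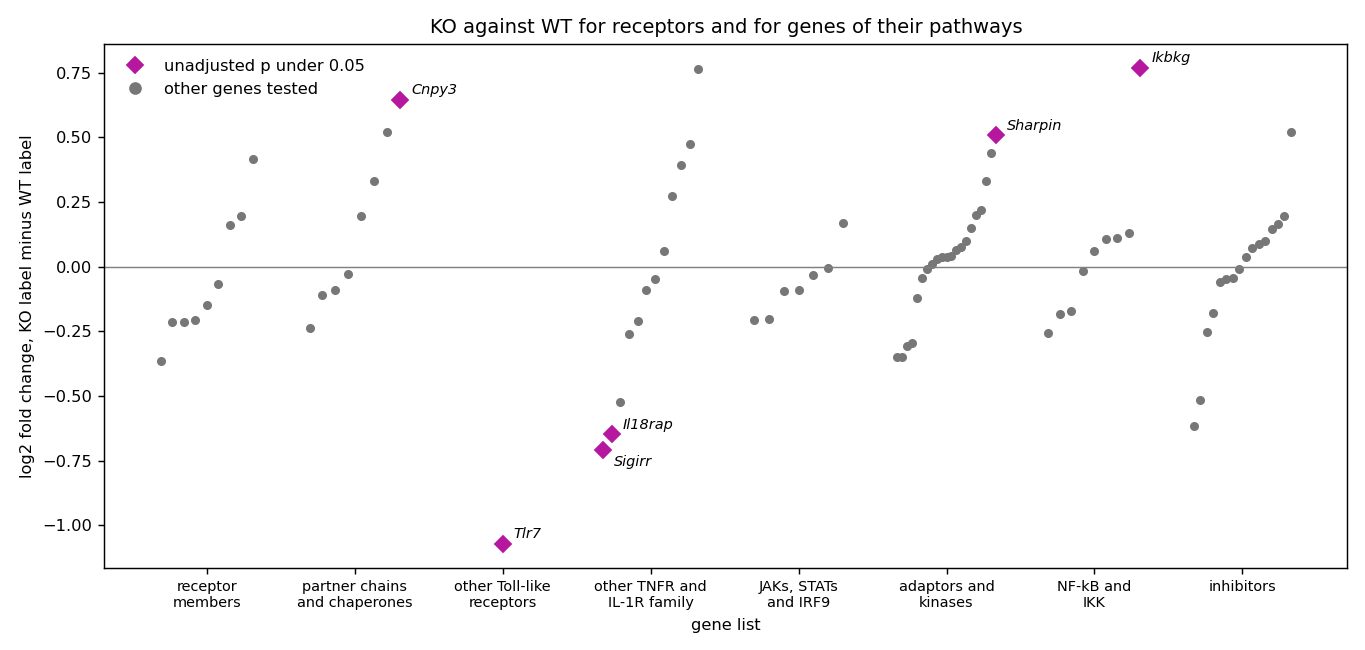
Log2 fold change of signal + 1, KO label minus WT label, for the 9 receptors tested and for the genes of 7 pathway lists that passed the filter, sorted within each list, with genes at an unadjusted limma p under 0.05 as named diamonds. The receptors hold no diamond, and the named diamonds run from Tlr7 at -1.07 to Ikbkg at 0.77.

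Of 7 JAK and STAT pathway genes below the interferon and IL-6 receptors, 6 had a lower mean and 0 were called (3.67% of all genes tested). Jak1, which serves IFNGR1, IFNAR2 and gp130 alike, ran from 29.4 to 38.3 (median 31.1) for the WT label and from 25.6 to 30.3 (median 27.8) for the KO label. In 4 KO libraries it was below every WT library. That was a log2 fold change of -0.21 (unadjusted limma p = 0.167, exact permutation p = 0.0108). Irf9 had a log2 fold change of -0.20 and Jak2 of 0.17, neither called.

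Of 21 tested adaptors and kinases below TNF, IL-1 and Toll-like receptors, Sharpin was the 1 called (4.76%), and of 9 NF-kB and IkB kinase genes Ikbkg was the 1 called (11.1%), beside 3.67% of all genes tested. Tab2 (0.04), Traf3 (0.44), Nfkb1 (0.11) and Ikbkb (0.13) were not called. Of 16 inhibitors tested 0 were called, 8 being higher and 8 lower, with the smallest unadjusted limma p for Nfkbie (0.0845, log2 fold change -0.52) and Nfkbib (0.226, log2 fold change 0.52).

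Toll-like and TNF receptors are abundant on mature myeloid cells, so markers of other cells were read beside them. The summed signal of 16 monocyte, neutrophil and macrophage markers was 136.4 to 227.0 in WT libraries and 111.1 to 230.5 in KO libraries, and 10 of the 16 had a mean below 2, among them S100a8, S100a9, Cd14 and Adgre1. Lyz2 (mean 80.2), Itgam (25.7), Ly6c2 (22.4) and Csf1r (22.0) were above 0 in 12 of 12 libraries. None of them was called, beside 3.67% of all genes tested. A mean below 2 was also found for 7 of 8 T and NK cell markers, 6 of 8 B cell markers, 5 of 8 erythroid markers and 6 of 7 stromal markers. The remaining ones included Nkg7 (mean 42.7), the B cell genes Ebf1 (124.4) and Cd79b (13.9) and the erythroid gene Car1 (36.3), each above 0 in 12 of 12 libraries and not called. The 6 megakaryocyte markers summed to 24.4 to 56.8 and to 33.2 to 79.4 (exact permutation p = 0.0368). Itga2b, the 1 of them that passed the filter, was called, beside 3.67% of all genes tested (log2 fold change 0.72, unadjusted limma p = 0.00597, exact permutation p = 0.00433). It had the highest mean signal of the 6 (20.3), so its call and the summed signal are not independent. Of 12 LSK markers 11 passed the filter. Flt3 was the 1 called, beside 3.67% of all genes tested, and was lower (log2 fold change -0.51, unadjusted limma p = 0.0423, exact permutation p = 0.0628). The part of these differences in the receptor values was not tested.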

How the data were processed

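RNA-seq of sorted LSK cells from 6 WT and 6 Fancg KO mice was analysed. The authors deposited a table with 1 signal value for each gene in each library, which was read as an estimated count scaled by a factor of that library. The submitters' processing notes name kallisto. The mouse genome build and annotation used for these libraries are not given in the sources used here, and positions and lengths come from GENCODE M21 (GRCm38), in which all 35999 gene names were found. All columns matched a library by its title, and replicate numbers are those of the titles.

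Values were used as deposited. The test used log2(signal + 1), on which changes of low genes come out too small, for all genes whose mean signal reached 10, with limma 3.58.1 in R 4.3.3 (trend, no covariate, two-sided, Benjamini-Hochberg adjustment over 8887 genes). Count tests were not used, because only between 10.4% and 11.4% of a library's values above 0 fell on whole reads (within 0.001). Single values were tested with two-sided exact permutation tests over the libraries, and genes within a library with exact sign-flip tests. The sign-flip tests of neighbouring receptors were not planned, and their pairs follow from the means of the same libraries. Read numbers behind a value are approximate.

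Receptors and lists were chosen with earlier results of these data known. All 10 receptors are named, and of each list the genes with an unadjusted p under 0.05 or otherwise those with the smallest p, together with those of the highest signal. Il10rb, Il18r1, Irak1, Itga2b and Flt3 and the marker genes given as examples were named after their values were seen. Alternatives were other pseudocounts, filters and scalings, limma without trend, the replicate block and each library left out. Fits without 2 libraries at a time were added after the values were seen.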

Additional observations from a re-analysis of the deposited data

Results flagged for a closer look

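Dixon's test marked values in which 1 library lay far from the other 5 of its label. It was met 6 times in 44 sets of 6 libraries, where about 2.2 would arise by chance in independent sets. The sets include ratios of the same receptors and genes picked by their p, so these counts cannot be compared as a test.

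KO replicate 4 gave 3 of these marked values. Its Tlr4 signal was 12.97, while the remaining KO libraries had 5.35 to 7.25. Its log2 ratio of Ifngr1 to Ifngr2 was 2.27, where the rest had -0.12 to 0.52, and its Sigirr signal was 12.2, where the rest had 25.3 to 34.1. It was among the deepest libraries, at about 2470746 reads. KO replicate 5 had a log2 ratio of Ifnar1 to Ifnar2 of 1.08, and the rest had -0.81 to -0.20. For Ikbkg, KO replicate 7 stood at 80.1 and the rest at 18.65 to 30.3. For Sharpin, WT replicate 7 stood at 11.4 and the rest of the WT libraries at 19.1 to 23.5. KO replicate 7 was the least deep library, at about 1235110 reads, and low in Y-linked transcripts. Ikbkg and Tlr7 lie on the X chromosome, and Tlr7 had its lowest value in KO replicate 7 (2.51). In WT replicate 3, also low in Y-linked transcripts, Ikbkg (11.2) and Tlr7 (7.13) had their lowest values of the WT label. Irak1, on the same chromosome, was not called (log2 fold change 0.04). The parts of depth and of the Y-linked difference in these values were not tested.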

How the results depend on the processing

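Over the fits that each left out 1 library, between 0 and 1 receptors had an unadjusted p under 0.05 (Ifnar1, without KO replicate 5) and 3 to 4 were higher. The log2 fold change ran from -0.33 to 0.11 for Ifngr2, from -0.53 to -0.26 for Ifnar1, from -0.32 to -0.12 for Ifnar2 and from -0.24 to 0.11 for Il1r1, which was above 0 without KO replicate 5, 6 or 7 (0.02, 0.11 and 0.02). The difference in log2 ratio ran from -0.41 to -0.03 for Ifnar1 to Ifnar2, from 0.57 to 1.03 for Tlr2 to Tlr4, from -0.20 to 0.24 for Il1r1 to Il1rap and from -0.23 to 0.11 for Il6st to Il6ra. Pathway calls ran from 1 to 8.

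Without WT replicate 3 and KO replicate 7, 1 receptor was called (Ifnar2, -0.38), Il1r1 was at 0.01 and the ratio of Ifnar1 to Ifnar2 differed by 0.0009 and that of Tlr2 to Tlr4 by 0.48. Of the 6 pathway genes called with all libraries, Tlr7 and Sigirr kept an unadjusted p under 0.05 there and Cnpy3, Sharpin, Il18rap and Ikbkg did not. Without WT replicate 3 and KO replicate 3 the ratio of Il1r1 to Il1rap differed by -0.06. At a mean signal of at least 50 only Il1r1 and Il6st remained, 0 of them higher on the log2 scale. In that fit 1 of 22 pathway genes was called. With libraries rescaled to equal sums without Lars2, 3 of 75 pathway genes were called, Sigirr had an unadjusted p of 0.0808, the median gene shifted by 0.06 and 70.5% of the 132 calls over all genes were higher, against 54% of 326. With the union of exons as length, 3 of 10 receptors kept their place in the order. Tlr4 has no value with quantile normalization, rescaling, limma without trend or the minimum of 50. The cause of these changes was not tested.

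Labels share replicate numbers. Deviations of libraries with the same number correlated at 0.20 on average, at 0.09 at the lowest, and over 0.1 in 4 of 6 pairs. Those with different numbers correlated at -0.04 on average, so libraries with the same number were more alike. What a number stands for is not given in the sources used here, and the main fit was left without a block. Each of 9 of 12 libraries correlated best with its own number. The replicate block gave 0 receptors, 4 pathway genes (without Cnpy3 and Sharpin) and 476 genes in all (5.36%) at an unadjusted p under 0.05.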
